A study of Mus musculus with 12 samples.

Results

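The insulin-like growth factor (IGF) binding proteins and the IGF receptor were followed by RNA-seq through the differentiation of mouse embryonic stem cells (mESCs). The members were the rows of the read count table with the symbols Igfbp2, Igfbp3, Igfbp4, Igfbp5, Igfbp6, Igfbp7 and Igf1r, which are 7 of the 24495 genes in the table. All 7 passed the filter on low counts, which kept 15532 genes. The cells were CCE-Nanog-GFP mESCs, a line that carries a GFP reporter for the pluripotency gene Nanog, sorted for GFP and grown on gelatin with serum and the cytokine LIF. Day 0 is this undifferentiated state. Day 2 and Day 4 are embryoid bodies, which are rotating aggregates of cells grown without LIF in the presence of all-trans retinoic acid. The control line, called shSC here (scr or WT in the labels), carried a scramble shRNA. It was compared with 1 line carrying a lentiviral shRNA against Ctsl, called shCTSL here (KD in the labels). Ctsl encodes the lysosomal protease cathepsin L, and the design asks how its knockdown changes expression before and during differentiation. Each of the 6 groups had 2 libraries, which the study calls biological replicates of these lines, so p-values measure the spread between replicates of 1 line per arm.

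IGF1 and IGF2 are secreted growth factors that signal through the receptor tyrosine kinase encoded by Igf1r. The IGF binding proteins are secreted proteins that hold these ligands outside the cell. They can keep the ligands from the receptor, carry them or release them close to cells, often after cleavage by proteases. Igfbp2 to Igfbp6 encode high-affinity binders, of which the Igfbp6 product prefers IGF2, and Igfbp7 encodes a related protein that binds IGFs weakly. In early embryonic tissues Igf2 is the main growth-promoting ligand of the family.

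In the mm9 annotation Igfbp2 (chr1:72871077-72899048, plus strand) and Igfbp5 (chr1:72904506-72921458, minus strand) are neighbours whose 3′ ends face each other across 5457 bases. Igfbp3 (chr11:7106089-7113926, minus strand) lies 3539 bases from Igfbp1, which had 0 to 3 reads per library and did not pass the filter. Igfbp4 (chr11:98902558-98913969, plus strand), Igfbp6 (chr15:101974793-101979942, plus strand), Igfbp7 (chr5:77778265-77837070, minus strand) and Igf1r (chr7:75097713-75371484, plus strand) stand apart from other members. The last 85 bases of Igfbp7 overlap Polr2b on the other strand. The sources used here do not give the strand setting of the counting, so reads in those bases cannot be told apart from those of Polr2b, which is not analysed here.

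The 250 bases before the start are shown for 4 members. Igfbp2 and Igfbp5 are shown because these neighbours moved in opposite directions after Day 2. Igfbp4 and Igf1r are shown because their levels, with those of Igfbp5, followed each other most closely across the libraries. The sequences are from RefSeq (GRCm38.p6) and the windows are chr1:72824230-72824479, plus strand, for the first of 2 listed starts of Igfbp2, chr1:72874866-72875115, minus strand, for Igfbp5, chr11:99040994-99041243, plus strand, for Igfbp4, and chr7:67952007-67952256, plus strand, for Igf1r. Each reads 5′ to 3′ in the direction of transcription, and capitals mark TATAAA (the TATA box), GGGCGG (the GC box) and AGGTCA (the half-site of nuclear receptors such as the retinoic acid receptors) on either strand.
Igfbp2: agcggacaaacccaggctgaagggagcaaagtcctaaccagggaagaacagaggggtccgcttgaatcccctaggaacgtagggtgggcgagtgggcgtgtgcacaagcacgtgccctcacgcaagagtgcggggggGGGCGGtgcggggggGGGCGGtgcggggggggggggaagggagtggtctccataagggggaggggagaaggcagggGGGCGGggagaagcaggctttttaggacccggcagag
Igfbp5: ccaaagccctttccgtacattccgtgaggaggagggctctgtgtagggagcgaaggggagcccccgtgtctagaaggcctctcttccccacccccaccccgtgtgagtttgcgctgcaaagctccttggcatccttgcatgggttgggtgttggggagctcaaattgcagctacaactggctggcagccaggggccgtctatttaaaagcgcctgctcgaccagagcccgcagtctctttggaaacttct
Igfbp4: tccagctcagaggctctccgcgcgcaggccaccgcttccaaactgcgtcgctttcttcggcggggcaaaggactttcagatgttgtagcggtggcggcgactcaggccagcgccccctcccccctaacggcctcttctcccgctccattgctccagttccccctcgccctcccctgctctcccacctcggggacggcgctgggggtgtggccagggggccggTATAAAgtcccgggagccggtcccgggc
Igf1r: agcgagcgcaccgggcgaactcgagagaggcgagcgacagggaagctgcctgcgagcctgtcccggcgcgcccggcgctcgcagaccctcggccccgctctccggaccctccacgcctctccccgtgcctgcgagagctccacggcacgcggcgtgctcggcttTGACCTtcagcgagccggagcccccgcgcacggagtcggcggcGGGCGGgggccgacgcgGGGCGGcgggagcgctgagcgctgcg
TATAAA stood 28 bases before the start of Igfbp4. GGGCGG was found 3 times before the shown start of Igfbp2 and 2 times for Igf1r. Igf1r also held 1 reverse match to AGGTCA, 86 bases before the start. The window before the second listed start of Igfbp2 held none of the 3 motifs. None of the 3 motifs was found for Igfbp5. Of all 32851 windows of this length, 12.4% held TATAAA, 32.7% held GGGCGG and 14% held AGGTCA, and a match is a description of the letters, not a bound site. Among the members not shown, Igfbp7 held 4 matches to GGGCGG, Igfbp6 held 1 reverse match to TATAAA and Igfbp3 held none. The C and G content of the shown windows was 67.2% for Igfbp2, 58.8% for Igfbp5, 69.2% for Igfbp4 and 77.6% for Igf1r.

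The libraries held 11171111 to 27155553 counted reads. Ctsl was lower in both shCTSL libraries than in both shSC libraries on each day, with log2 fold changes of −1.89 on Day 0 (adjusted p = 0.00246), −1.06 on Day 2 (adjusted p = 0.0342) and −0.83 on Day 4 (adjusted p = 0.0896). With 1 library left out, Ctsl ran from −1.95 to −1.83 on Day 0, where it did not pass in 2 of 12 fits, and from −1.28 to −0.86 on Day 2, where it did not pass in 10 of 12. All 5 pluripotency markers examined fell and all 5 retinoic acid targets rose from Day 0 to Day 4 in both lines. Of all genes tested, 28.7% fell and 32.1% rose in shSC, and 27.6% fell and 32.3% rose in shCTSL. The 2 shCTSL Day 2 libraries stood apart: the SD of their log2 ratio over genes was 0.604, against 0.178 to 0.269 for the replicate pairs of the other 5 groups. Their ratio also followed gene length, with a median log2 ratio of replicate 1 over replicate 2 of 0.52 for genes with under 2 kb of exons and −0.33 for genes with over 4 kb. The steps of shCTSL that use them are therefore also given without each of them.

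From Day 0 to Day 4 the IGF binding proteins changed from a set led by Igfbp2 to one led by Igfbp5 and Igfbp4. In shSC, 6 members rose and Igfbp2 fell, by edgeR's quasi-likelihood test with a Benjamini-Hochberg adjusted p under 0.05 and a change of at least 1.5-fold (the thresholds for every "rose" and "fell" here). These thresholds were passed by 60.7% of all genes tested in that comparison, 32.1% higher and 28.7% lower. In shCTSL the same 6 rose and Igfbp2 did not pass, where 59.9% of all genes tested passed (32.3% higher, 27.6% lower). Over the members the median log2 fold change was 2.95 in shSC and 3.07 in shCTSL, beside 0.03 and 0.06 over all genes tested. Much of the transcriptome changed over these days, so a share of members passing is read only against those percentages. For all 7 members the libraries of the days compared did not overlap in any of the 3 comparisons of each line. That was so for 89.7% (Day 2 against Day 0), 77.6% (Day 4 against Day 2) and 89.7% (Day 4 against Day 0) of all genes in shSC, and for 75.8%, 54.7% and 88.2% in shCTSL. In bulk RNA, more cells that express a gene and more RNA per cell cannot be told apart.

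**Figure D1:**
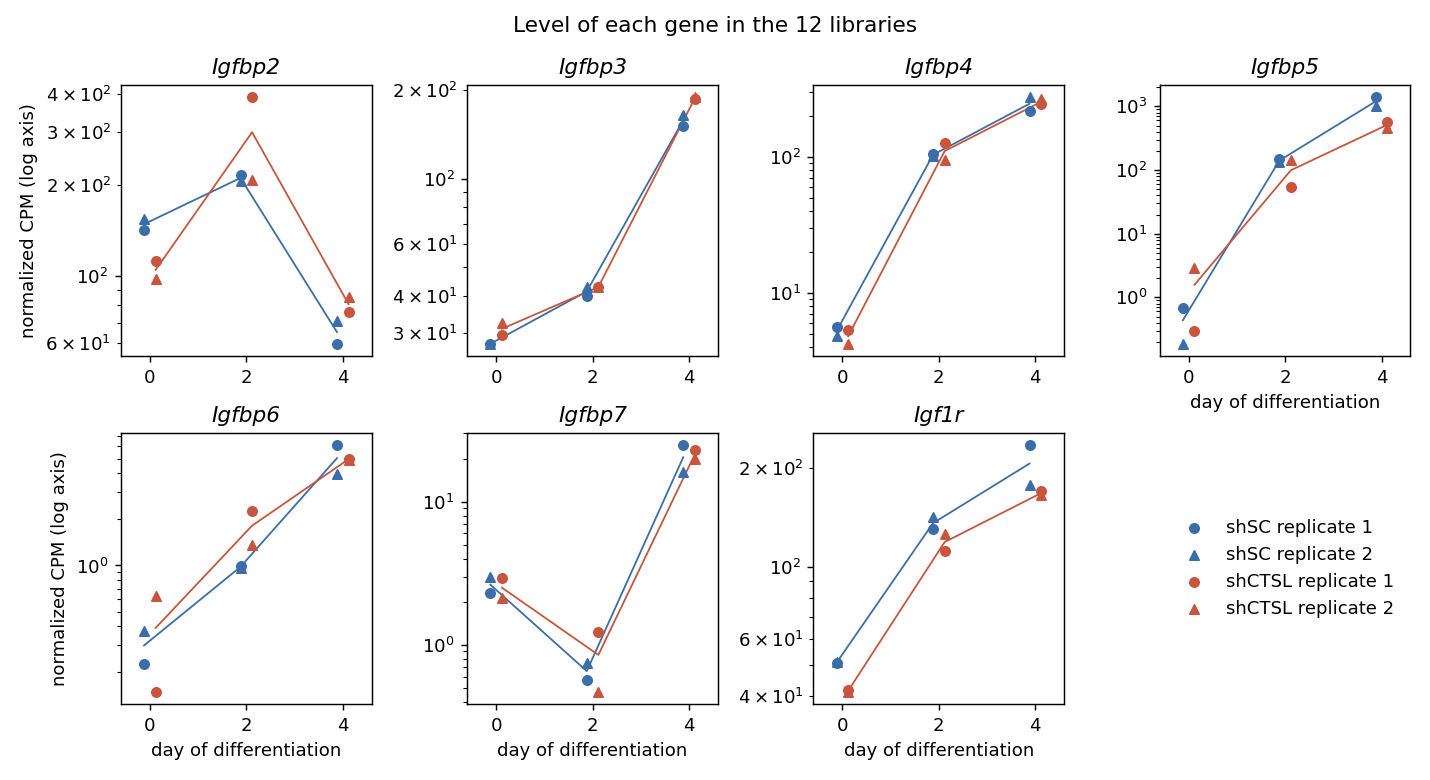
Normalized CPM (reads scaled to a common library size, log axis) of the 7 genes against day. Each point is 1 library, shSC in blue and shCTSL in red, and lines join the means of 2 libraries. Igfbp5 spans from 0.186 to 1390 CPM, Igfbp2 peaks on Day 2, and Igfbp7 is lowest on Day 2.

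Igfbp5 had the widest range of the 7. Its product is a binder that attaches to extracellular matrix. In shSC it was at 0.686 and 0.186 normalized CPM (read counts scaled to library size by edgeR's TMM method) on Day 0 (9 and 3 reads), 147 and 135 on Day 2, and 1390 and 1010 on Day 4. In shCTSL it was at 0.298 and 2.84 on Day 0 (4 and 27 reads), 53.5 and 145 on Day 2, and 563 and 464 on Day 4. The days did not overlap in either line, and the replicates differed most where counts were few or in the shCTSL Day 2 libraries. From Day 0 to Day 4 Igfbp5 rose by 11.48 on the log2 scale in shSC (95% interval 9.63 to 13.33, adjusted p = 9.27e-07), which ranked 6 of 15532 genes by fold change. The rise in shCTSL was 8.51 (interval 6.89 to 10.13, adjusted p = 3.14e-06), ranked 78. The low Day 0 counts make both fold changes imprecise: leaving out shSC Day 0 replicate 1 gave 12.60 and replicate 2 gave 10.78, and leaving out shCTSL Day 0 replicate 1 gave 7.49 and replicate 2 gave 10.72. Between Day 2 and Day 4 alone, where counts were high, Igfbp5 rose by 3.09 in shSC and 2.37 in shCTSL (log2, adjusted p = 0.00131 and 0.00538). The shCTSL step was 1.80 without shCTSL Day 2 replicate 1 and 3.26 without replicate 2, and it did not pass in a fit of only the libraries compared (adjusted p = 0.0525).

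Igfbp4, which encodes a binder mostly known to restrain IGF action, rose on both steps in both lines. Its levels in shSC were 5.64 and 4.83 CPM on Day 0, 105 and 102 on Day 2, and 218 and 276 on Day 4. In shCTSL they were 5.37 and 4.21 on Day 0, 127 and 94.6 on Day 2, and 244 and 265 on Day 4. The days were fully separated and the lines overlapped on every day. The first step had a log2 fold change of 4.31 ± 0.20 (SE) in shSC and 4.51 ± 0.21 in shCTSL, with adjusted p values of 9.85e-08 and 9.31e-08. The second step was smaller, at 1.25 ± 0.17 and 1.20 ± 0.17 (adjusted p = 0.00038 and 0.000527).

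Igfbp2, whose transcript was the most abundant of the 6 binding proteins per kb of exon on Day 0, had a peak rather than a steady course. In shSC it was at 142 and 155 CPM on Day 0, 215 and 207 on Day 2, and 59.7 and 70.9 on Day 4. The shCTSL levels were 112 and 97.6 on Day 0, 390 and 208 on Day 2, and 76.3 and 85.4 on Day 4. Day 2 was the highest and Day 4 the lowest in both lines. The step to Day 2 passed in shCTSL, at 1.51 ± 0.24 (log2, SE, adjusted p = 0.000329), and not in shSC, where it was 0.51 ± 0.24 (adjusted p = 0.083). The difference between these steps was not tested. In shCTSL the size of that step came in part from replicate 1 and was 1.03 without it, still past both thresholds. From Day 2 to Day 4 Igfbp2 fell in both lines, and the shCTSL log2 fold change was −1.88 (adjusted p = 0.000342). Over the whole course Igfbp2 fell in shSC (−1.18, adjusted p = 0.00135), and the change in shCTSL was −0.38 (adjusted p = 0.184).

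The neighbours Igfbp2 and Igfbp5 thus exchanged places. Per kb of exon, Igfbp2 was 672 and 2711 times as high as Igfbp5 in the shSC Day 0 libraries and 1220 and 112 times as high in those of shCTSL. On Day 2 it was 4.78 and 4.98 times as high in shSC. On Day 4 Igfbp5 was the higher one, 7.16 and 4.38 times in shSC and 2.27 and 1.67 times in shCTSL. The Day 0 ratios rest on the few Igfbp5 reads given above. In shCTSL Day 2, Igfbp2 was 23.7 times as high as Igfbp5 in replicate 1 and 4.66 times in replicate 2. Igfbp2 has 1847 exonic bases and Igfbp5 has 6006, and those libraries differed by gene length. The part of length in that difference was not tested.

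Igfbp3 encodes the main IGF carrier of adult serum. In shSC it was at 27.5 CPM in both Day 0 libraries, 39.8 and 43.0 on Day 2, and 151 and 164 on Day 4. The shCTSL libraries had 29.5 and 32.3, then 43.0 and 42.8, then 186 and 189. Its replicates lay close together on every day, shCTSL Day 2 included. Most of its rise came after Day 2: the log2 fold change of the second step was 1.93 ± 0.10 (SE) in shSC and 2.13 ± 0.10 in shCTSL, with adjusted p values of 1.86e-06 and 1.15e-06. The first step was 0.59 in shSC (adjusted p = 0.000562), at the edge of the 1.5-fold cutoff, and 0.47 in shCTSL (adjusted p = 0.00238), under it. The shSC step fell under the cutoff without shSC Day 2 replicate 2 (0.54) and with offsets for exonic length (0.43).

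Igfbp7 had a trough on Day 2. Its counts were 11 to 48 per library before Day 4 and 232 to 561 on Day 4. In shSC it was at 2.29 and 2.97 CPM on Day 0, 0.564 and 0.744 on Day 2, and 24.8 and 16.1 on Day 4. The shCTSL values were 2.91 and 2.11, then 1.23 and 0.468, then 22.9 and 20.0. Every Day 2 library was below every Day 0 library, and every Day 4 library was above both. To Day 2 Igfbp7 fell by 2.03 ± 0.42 (log2, SE, adjusted p = 0.00178) in shSC. In shCTSL the change was −1.67 ± 0.44 (adjusted p = 0.00776), with −2.40 without shCTSL Day 2 replicate 1 and −1.05 without replicate 2. It did not pass with limma-voom quality weights (adjusted p = 0.287), in a fit of only the libraries compared (adjusted p = 0.0536) or without shCTSL Day 0 replicate 1 (adjusted p = 0.0786). After Day 2 Igfbp7 rose by 4.98 in shSC and 4.73 in shCTSL (log2, adjusted p = 1.04e-05 and 1.67e-05). The shCTSL value was 5.47 without shCTSL Day 2 replicate 1 and 4.11 without replicate 2. The fold changes with all libraries ranked 44 and 43 of 15532.

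Igfbp6 was low throughout, with 2 to 138 reads per library. In shSC it was at 0.229 and 0.372 CPM on Day 0, 0.996 and 0.963 on Day 2, and 6.10 and 3.95 on Day 4. The shCTSL libraries held 0.149 and 0.632, then 2.28 and 1.36, then 4.98 and 4.92. All days were separated in both lines. The log2 fold change from Day 0 to Day 4 was 4.02 ± 0.47 (SE) in shSC and 3.78 ± 0.49 in shCTSL, with adjusted p values of 2.85e-05 and 6.2e-05. The shCTSL value was 2.96 without shCTSL Day 0 replicate 1 and 4.99 without replicate 2. Calls on its single steps depended on the libraries used. The step to Day 2 in shSC (1.65, adjusted p = 0.0248) did not pass without any 1 of its 4 libraries (adjusted p from 0.0564 to 0.126). In shCTSL the step to Day 2 (2.31, adjusted p = 0.0042) did not pass without shCTSL Day 0 replicate 1 (1.48, adjusted p = 0.0608) and was 3.52 without replicate 2. The step to Day 4 in shCTSL (1.48, adjusted p = 0.00807) did not pass with quality weights (adjusted p = 0.304) or in a fit of only the libraries compared (adjusted p = 0.0619).

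Igf1r, the receptor, was already present in undifferentiated cells. In shSC it was at 50.5 and 51.0 CPM on Day 0, 130 and 142 on Day 2, and 235 and 178 on Day 4. In shCTSL it was at 41.9 and 41.3, then 112 and 126, then 170 and 166. The days were separated in each line. Most of its rise came by Day 2, with log2 fold changes of 1.42 ± 0.14 (SE) in shSC and 1.51 ± 0.14 in shCTSL (adjusted p = 9.84e-06 and 6.77e-06). The later step was 0.61 in shSC (adjusted p = 0.00652) and 0.50 in shCTSL (adjusted p = 0.0184), which lie on either side of the fold cutoff. The shSC step was under the cutoff or had an adjusted p over 0.05 without shSC Day 0 replicate 2 (0.58), Day 2 replicate 1 (0.54) or Day 4 replicate 1 (0.39), and with length offsets (0.57).

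By step, 5 members rose, 1 (Igfbp7) fell and 1 did not pass from Day 0 to Day 2 in each line. The member that did not pass was Igfbp2 in shSC and Igfbp3 in shCTSL. Of all genes tested, 54.6% passed in shSC (29.3% higher, 25.3% lower) and 55.5% in shCTSL (30.9% higher, 24.6% lower). From Day 2 to Day 4 in shSC, 6 members rose and 1 (Igfbp2) fell, where 23.8% of all genes passed (11.4% higher, 12.4% lower). In shCTSL, 5 rose, Igfbp2 fell and Igf1r did not pass, where 23.4% of all genes passed (11% higher, 12.4% lower). From Day 2 to Day 4 the members' median log2 fold change was 1.93 in shSC and 1.47 in shCTSL, beside 0.02 and −0.02 over all genes tested. Igfbp2 and Igfbp7 were the members whose levels reversed course, in opposite directions, although the Igfbp2 step to Day 2 did not pass in shSC. The Igfbp7 step to Day 2 in shCTSL depended on the fit, as given above.

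Without shCTSL Day 2 replicate 1 and then without replicate 2, the log2 fold change from Day 0 to Day 2 in shCTSL was 4.32 and 4.70 for Igfbp4, 1.64 and 1.43 for Igf1r, and 1.98 and 2.68 for Igfbp6. It was 0.52 and 0.48 for Igfbp3 and 1.03 and 1.89 for Igfbp2. From Day 2 to Day 4 it was 1.41 and 1.006 for Igfbp4, 2.11 and 2.12 for Igfbp3, and 1.83 and 1.11 for Igfbp6. For Igfbp2 it was −1.38 and −2.27, and for Igf1r 0.39 and 0.58, both under the fold cutoff. Every one of these values kept its direction and its side of the thresholds.

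**Figure D2:**
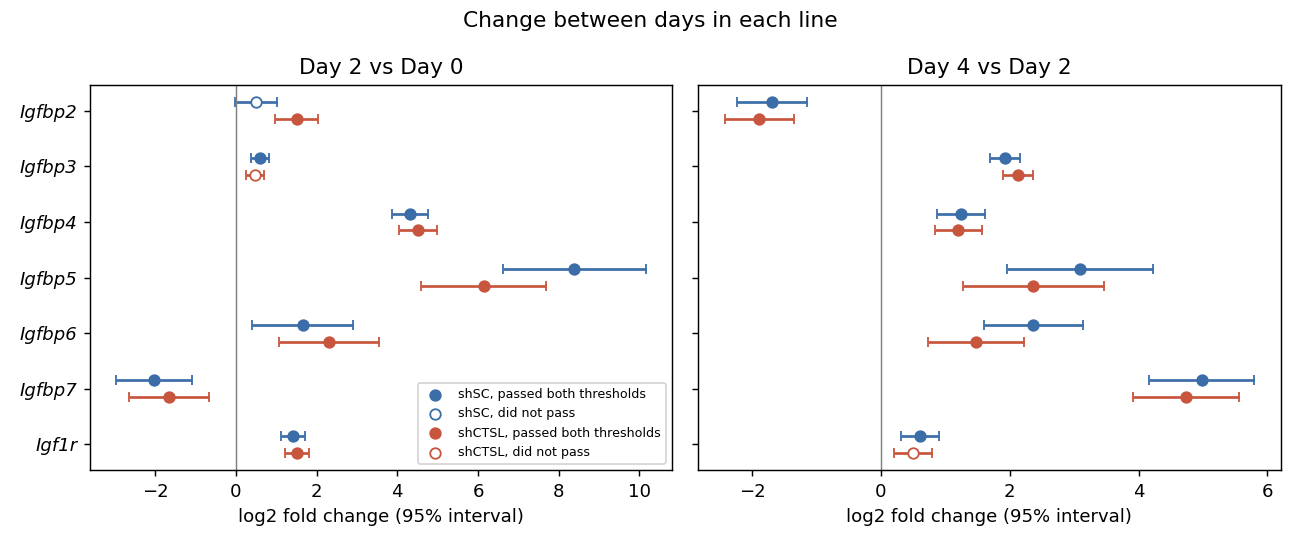
Log2 fold change of the 7 genes from Day 0 to Day 2 (left) and from Day 2 to Day 4 (right), shSC in blue and shCTSL in red, with 95% intervals from the edgeR fit. Filled points passed an adjusted p of 0.05 and 1.5-fold, and open points did not. Igfbp5 and Igfbp4 moved most on the first step, Igfbp7 moved most on the second, and Igfbp2 is the one gene below 0 on the right.

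Set on a per-kb scale, the summed level of the 6 IGF binding proteins was 67.8 to 97.6 CPM per kb on Day 0, 192 to 290 on Day 2, and 317 to 430 on Day 4. Igfbp2 made up 78.0 to 86.0% of this sum on Day 0, 58.0 to 72.7% on Day 2 and 7.52 to 14.6% on Day 4. Igfbp5 made up 0.0317 to 0.699% on Day 0. On Day 4 it made up 53.8 and 42.8% in shSC and 29.2 and 24.4% in shCTSL. Igfbp4 held 21.5 and 29.7% in shSC on Day 4 and 32.2 and 35.4% in shCTSL. These shares are of transcripts, and Igf1r was left out of them because it encodes a receptor, not a binding protein. Its annotated exons here hold little beyond the coding part, and the length offsets below use the same annotation.

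**Figure D3:**
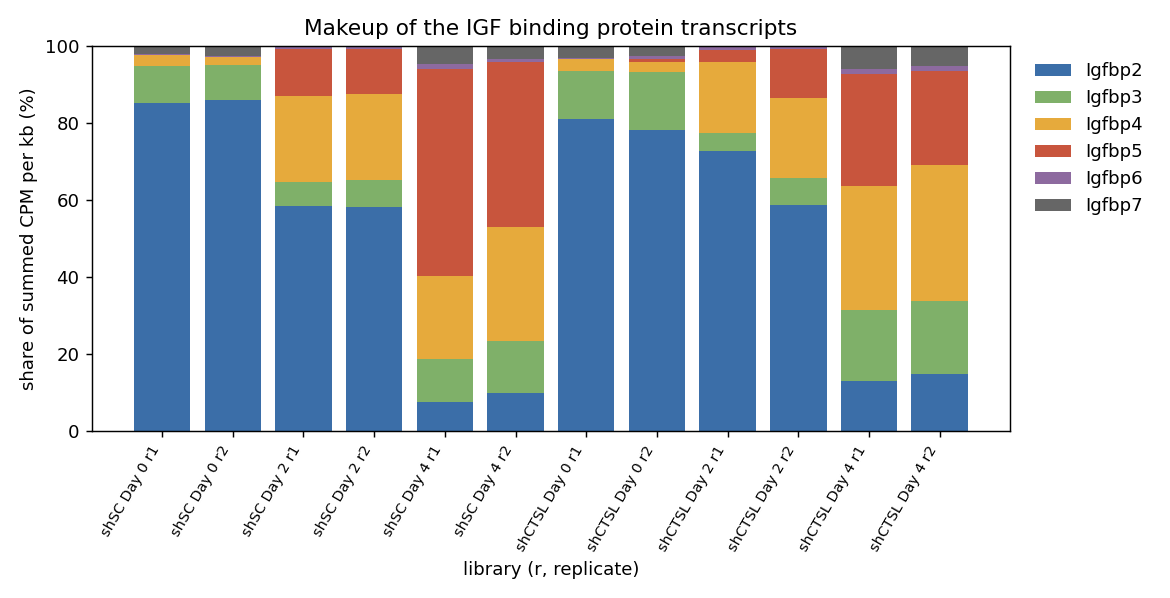
Share of each IGF binding protein in the summed CPM per kb of the 6 genes, as stacked bars for the 12 libraries. Igfbp2 (blue) fills 78.0 to 86.0% of the Day 0 bars, and on Day 4 Igfbp5 (red) takes 53.8 and 42.8% in shSC and 29.2 and 24.4% in shCTSL.

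No member passed the thresholds between shCTSL and shSC on any day. Of all genes tested, 0.0386% passed on Day 0, 0.0644% on Day 2 (0.0579% lower) and 0.0129% on Day 4, and 1127, 3014 and 1897 genes had an unadjusted p under 0.05. Libraries of the lines did not overlap for 3 of 7 members on Day 0, 2 of 7 on Day 2 and 4 of 7 on Day 4, beside 51.3%, 45.5% and 61.5% of all genes tested. A p that misses the threshold does not show that the lines were alike, and the intervals below give what the data allow.

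On Day 4 the call for Igfbp5 turned on the fit. Both shCTSL libraries (563 and 464 CPM) were below both shSC libraries (1390 and 1010), or −1.22 on the log2 scale (SE 0.47, 95% interval −2.28 to −0.17). Its unadjusted p was 0.0274 and its adjusted p was 0.37. Without both shCTSL Day 2 libraries, which are not part of the comparison but enter its estimate of spread, the value was −1.21 (SE 0.17, adjusted p = 0.000377). It also passed in a fit of only the 4 libraries compared (−1.20, adjusted p = 0.000866), with quality weights (−1.23, adjusted p = 0.00104), and without either shCTSL Day 2 library alone (adjusted p = 0.000265 without replicate 1 and 0.000319 without replicate 2). With DESeq2 it was −1.22 (adjusted p = 0.561). The size hardly moved between these fits, and the spread assigned to it did. Many other genes passed as well: 909 without both shCTSL Day 2 libraries, 711 with only the libraries compared and 723 with quality weights. DESeq2 called 124 genes, and the edgeR fit of all 12 libraries called 2. The Day 4 differences also followed gene length, with a median log2 fold change over genes of 0.21 under 2 kb of exons and −0.14 over 4 kb. With length offsets, added after seeing the data, the value for Igfbp5 was −1.11 (adjusted p = 0.201). Earlier, the lines overlapped for Igfbp5 on Day 0 (1.75, interval −0.91 to 4.41) and on Day 2 (−0.50, interval −1.55 to 0.55).

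Igf1r was lower in both shCTSL libraries than in both shSC libraries on every day. The log2 fold changes were −0.29 on Day 0 (interval −0.59 to 0.02, adjusted p = 0.713), −0.19 on Day 2 (interval −0.49 to 0.10, adjusted p = 0.396) and −0.30 on Day 4 (interval −0.60 to −0.01, adjusted p = 0.404). Each is under 1.5-fold, also without both shCTSL Day 2 libraries, where the Day 4 value was −0.29 (adjusted p = 0.0315). With length offsets they were −0.25, −0.13 and −0.25, based on 4476 annotated exonic bases that hold little beyond the coding part of Igf1r. Genes with over 4 kb of exons had median line differences of −0.06, −0.15 and −0.14 on Day 0, 2 and 4. The 3 days are not independent tests of a line, since only 1 shCTSL line was sequenced.

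Igfbp2 was lower in shCTSL on Day 0 (−0.50, interval −1.03 to 0.03, adjusted p = 0.711) and higher on Day 4 (0.31, interval −0.22 to 0.84, adjusted p = 0.548), with no overlap of libraries on either day. The difference between the lines in the change from Day 0 to Day 4 was 0.81 (SE 0.34, unadjusted p = 0.0366, adjusted p = 0.717), in a test that 0.00644% of all genes passed. It passed without both shCTSL Day 2 libraries (0.81, adjusted p = 0.00963), in a fit of only the libraries compared (0.81, adjusted p = 0.0263) and with quality weights (0.82, adjusted p = 0.0255), and also without either shCTSL Day 2 library alone (adjusted p = 0.00854 and 0.00644). With DESeq2 the value was 0.79 (adjusted p = 0.817). It also did not pass with RLE scaling, no filter, the replicate block or length offsets, each of which called 0 members. Many other genes passed that test without both shCTSL Day 2 libraries (258), with only the libraries compared (149) and with quality weights (130). The edgeR fit of all 12 libraries called 1. Igfbp2 has 1847 exonic bases, and genes with under 2 kb of exons had a median line difference of 0.21 on Day 4. The part of length in the Igfbp2 values was not tested. On Day 2 the Igfbp2 difference of 0.50 (adjusted p = 0.265) was set by which library was used. It was −0.01 without shCTSL Day 2 replicate 1 and 0.88 without replicate 2. Each of these fits leaves 1 shCTSL library on Day 2, so only the size is given.

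The same library choice moved other members on Day 2. For Igfbp5 the Day 2 difference was 0.05 without shCTSL replicate 1 and −1.40 without replicate 2. For Igfbp6, where the shCTSL libraries (2.28 and 1.36 CPM) were both above the shSC ones (0.996 and 0.963), it was 0.85 (adjusted p = 0.256). With 1 library left out, the Igfbp6 value ran from 0.48 to 1.21, the highest without replicate 2. Igfbp3 was the most precise member, with differences of 0.17, 0.05 and 0.25 on Day 0, 2 and 4 (interval on Day 4 0.03 to 0.47, adjusted p = 0.37). Igfbp4 differed by −0.11, 0.09 and 0.05, with an interval on Day 4 of −0.32 to 0.41. Igfbp7 differed by −0.06, 0.30 and 0.06, with an interval on Day 4 of −0.54 to 0.66.

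For the change from Day 0 to Day 4, the lines differed for Igfbp5 by −2.97 (SE 1.27, adjusted p = 0.731), a value that rests on the 3 to 27 reads per Day 0 library and became −0.76 without shCTSL Day 0 replicate 2. For the change from Day 2 to Day 4, no gene of the 15532 passed by edgeR, 753 had an unadjusted p under 0.05, and DESeq2 called 6. The member differences ran from −0.89 for Igfbp6 to 0.20 for Igfbp3, all with an adjusted p of 1. These values turned on the shCTSL Day 2 libraries. Igfbp5 was at −1.27 without replicate 1 and 0.17 without replicate 2, and Igfbp6 was at −1.26 without replicate 2. These fits leave 1 shCTSL library on Day 2. Over all fits with 1 library left out, Igfbp6 ran from −1.26 to −0.53.

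**Figure D4:**
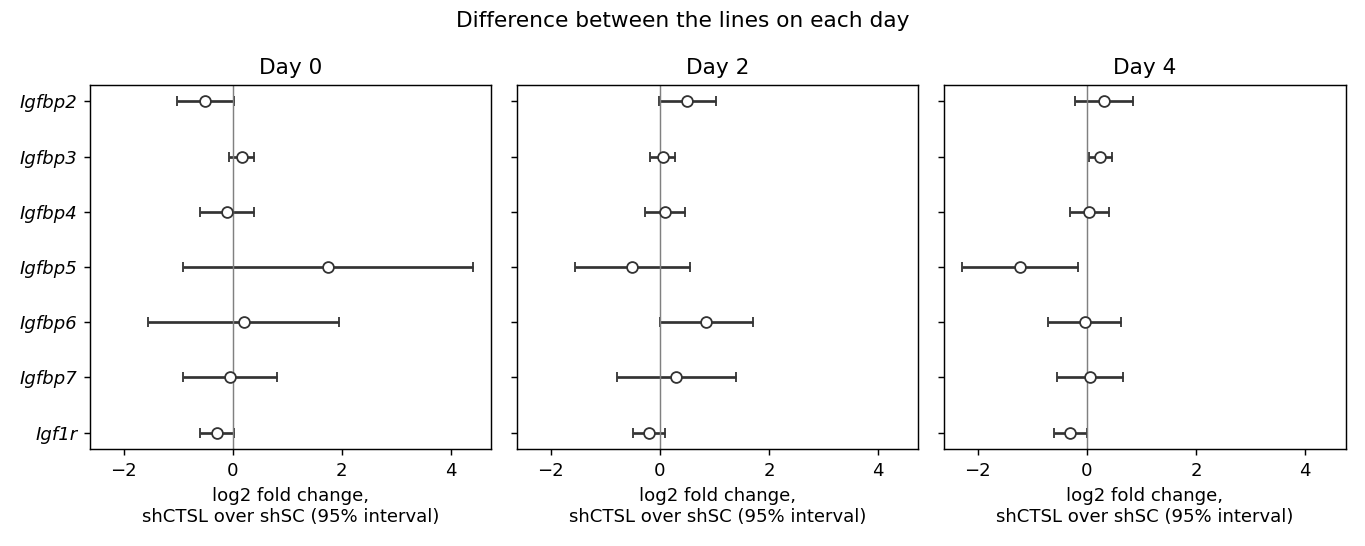
Log2 fold change of shCTSL over shSC for the 7 genes on Day 0, 2 and 4, with 95% intervals from the edgeR fit of 12 libraries. All points are open because none passed the thresholds. Igf1r lies below 0 on all 3 days, and Igfbp5 on Day 4 (−1.22) is the lowest value of that day.

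The order of the groups differed between members. Igfbp4, Igfbp5, Igfbp6, Igfbp3 and Igf1r ran from Day 0 through Day 2 to Day 4, with shSC and shCTSL neighbours overlapping on at least 1 day for all but Igf1r. Igfbp7 ran from Day 2 through Day 0 to Day 4, with the lines overlapping at each day. Igfbp2 ran from Day 4 through Day 0 to Day 2. As a description over the 12 libraries, which form 6 groups and share the time course, log2 levels of Igf1r followed Igfbp5 (Pearson r = 0.98) and Igfbp4 (r = 0.98), and Igfbp4 followed Igfbp5 (r = 0.97). Igfbp3 was closest to Igfbp6 (r = 0.94), and Igfbp2 ran against Igfbp7 (r = −0.85).

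Across all genes tested, the 3 genes whose log2 levels were most like each member over the 12 libraries were as follows. For Igfbp5 they were Nedd9 (Pearson r = 0.997), Zhx2 (0.996) and Satb1 (0.996). For Igfbp4 they were Emilin1 (0.998), Foxc2 (0.998) and Tnfsf9 (0.997). For Igf1r they were Usp3 (0.994), Sox5 (0.994) and Fgfr2 (0.993). For Igfbp3 they were Rab27b (0.996), Hlx (0.996) and Col3a1 (0.994), a fibrillar collagen gene. For Igfbp2 they were Wwp2, Tubb2a and Plin5, between 0.981 and 0.982. For Igfbp6 they were Fhl2 (0.991), Spp2 (0.981) and Smoc2 (0.980), and for Igfbp7 they included Pga5 (0.991) and Kcnk3 (0.984). All 12 libraries share one time course, and each correlation is a description of it.

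The IGF binding proteins are widely expressed by mesenchymal and endodermal cells, so markers of such cells were set beside them. Of 7 fibroblast and mesenchyme markers, 6 rose and Thy1 fell from Day 0 to Day 4 in both lines. Their summed level was 8.64 to 12.3 CPM on Day 0 and 440 to 473 on Day 4. Dcn, which encodes the matrix proteoglycan decorin, was at 0 to 1 read in the Day 0 libraries. Of 7 markers of primitive and visceral endoderm, 6 rose in shSC and 7 in shCTSL. Of 4 endothelial markers, 3 rose and 1 fell in both lines, and of 4 neural markers, 2 rose, 1 fell and 1 did not pass. Over the same days 60.7% of all genes tested passed in shSC (32.1% higher, 28.7% lower) and 59.9% in shCTSL (32.3% higher, 27.6% lower). The marker counts are read only against those percentages. No marker of these lists passed between the lines on Day 0, 2 or 4, where 0.0386%, 0.0644% and 0.0129% of all genes tested did. The part of these cell types in the rise of the members was not tested.

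The rest of the IGF pathway was examined as a list of 46 genes, of which 40 passed the filter. From Day 0 to Day 4, 19 rose, 6 fell and 15 did not pass in shSC, and 19 rose, 8 fell and 13 did not pass in shCTSL. Over the same days 60.7% of all genes tested passed in shSC (32.1% higher, 28.7% lower) and 59.9% in shCTSL (32.3% higher, 27.6% lower). The counts of this list are read only against those percentages. Both ligand genes that could be tested rose. Igf2 was at 18.0 and 19.5 CPM on Day 0, 303 and 309 on Day 2, and 1142 and 1316 on Day 4 in shSC, a log2 fold change of 6.04 (adjusted p = 3.6e-09). In shCTSL it was at 18.9 and 18.6, then 130 and 173, then 1041 and 1009, a change of 5.77 (adjusted p = 5.05e-09). Igf1 had 0 to 4 reads in the Day 0 libraries and 957 to 1649 on Day 4, with fitted changes of 8.95 in shSC and 7.84 in shCTSL that depend on those few reads. The shSC value was 8.11 without shSC Day 0 replicate 1 and 13.35 without replicate 2, which leaves a library with 0 reads. Ins1 and Ins2, the insulin genes, did not pass the filter.

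Igf2 was the one pathway gene that passed between the lines, on Day 2, where shCTSL was lower (−1.01, SE 0.14, adjusted p = 0.0342). The call depended on the fit. It passed with DESeq2 (adjusted p = 8.69e-07), with no filter (adjusted p = 0.000513) and with length offsets (adjusted p = 0.00777). The value was −0.81 without shCTSL Day 2 replicate 1 and −1.24 without replicate 2, in fits that leave 1 shCTSL library on Day 2. It did not pass with RLE scaling (adjusted p = 0.0518), with quality weights (adjusted p = 0.428), in a fit of only the libraries compared (adjusted p = 0.708), or without any 1 of the other 10 libraries (adjusted p from 0.0847 to 0.474). Its direction was the same in all of these. On Day 0 its levels overlapped, and on Day 4 the difference was −0.26 (adjusted p = 0.446).

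Among the other receptors, Igf2r, which encodes the receptor that takes up IGF2 for degradation, rose by 1.35 in shSC and 1.58 in shCTSL (log2, adjusted p = 0.001 and 0.000394). Insr, the insulin receptor gene, rose by 1.79 and 1.94 (adjusted p = 2.25e-05 and 1.51e-05). The fold change of Igf1r itself, 2.03 and 2.01, was near these. The insulin receptor-related gene Insrr did not pass (1.89, adjusted p = 0.157, and 0.60, adjusted p = 0.564). Igfals, which encodes the acid-labile subunit that joins IGF complexes in serum, fell by 2.15 in shSC and by 1.10 in shCTSL (log2, adjusted p = 0.000561 and 0.0307). The shSC value was −1.58 without shSC Day 4 replicate 1 and −2.76 without replicate 2. In shCTSL it did not pass when any 1 of its Day 0 or Day 4 libraries was removed.

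Of 5 proteases of the binding proteins and their inhibitors, 4 were tested, and 3 rose and 1 fell in both lines. The largest change was that of Adam12, a metalloprotease known to cleave IGF binding proteins, with 7.03 in shSC and 7.85 in shCTSL. Stc2, an inhibitor of the PAPP-A proteases, was the one that fell (−3.32 and −3.12). Of 11 tested genes for other proteins with an IGFBP domain, 3 rose and 2 fell in both lines, with the largest rise for Wisp1 (3.07 and 2.92). Of 7 receptor adaptors, 3 rose and 1 fell in shSC, and 3 rose and 2 fell in shCTSL. Irs1, which couples the receptor to PI3 kinase, rose by 3.25 and by 3.27. Of 12 genes of the PI3 kinase arm, 6 rose in each line and 1 fell in shSC and 2 in shCTSL, with the largest change for the regulatory subunit gene Pik3r3 (3.61 and 3.27).

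**Figure D5:**
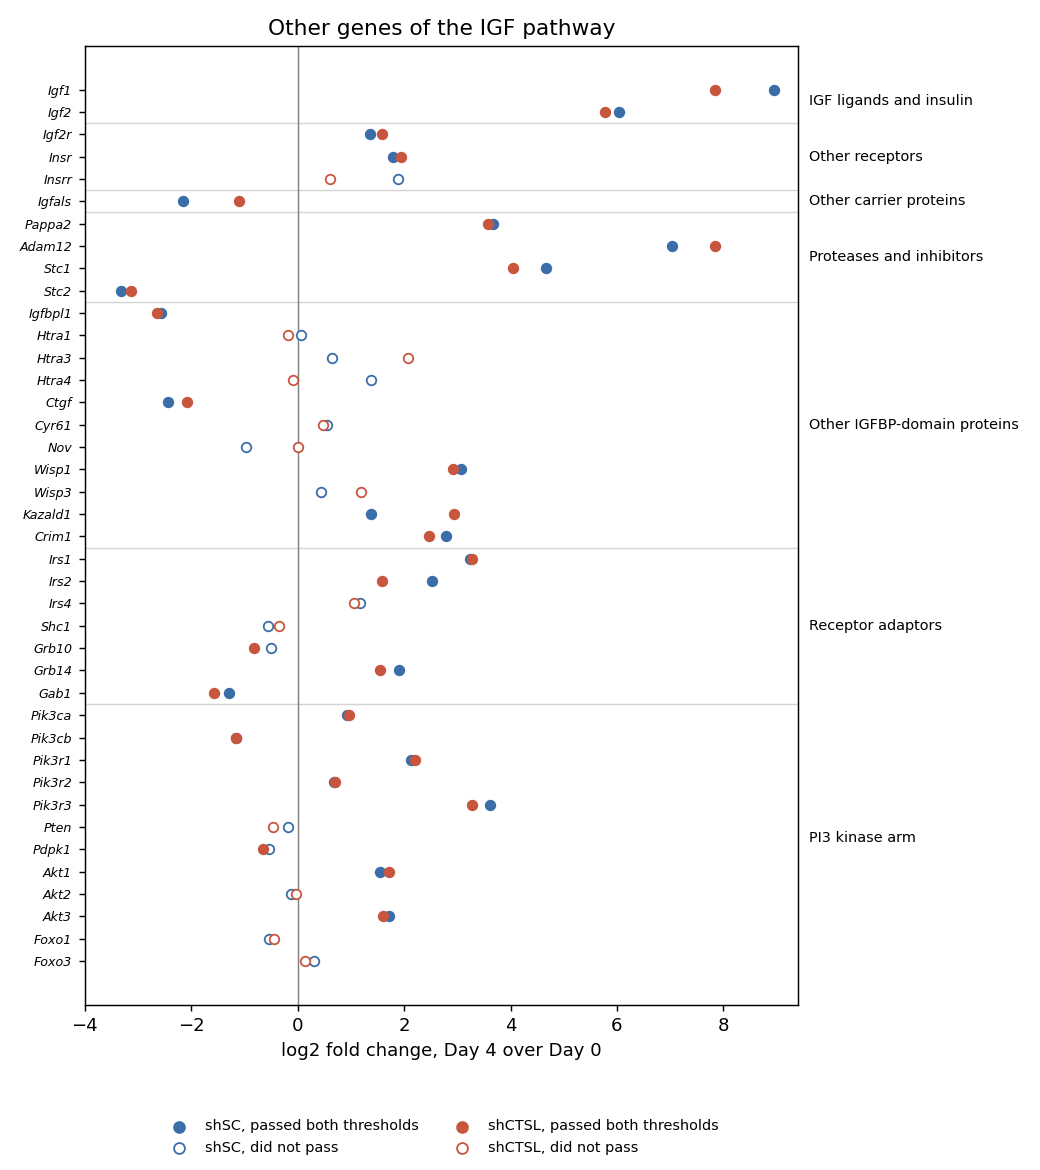
Log2 fold change from Day 0 to Day 4 for the 40 tested genes of the IGF pathway outside the 7 described, by role, shSC in blue and shCTSL in red. Filled points passed the thresholds and open points did not. Igf1, Adam12 and Igf2 lie farthest to the right, and Stc2 lies farthest to the left.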

How the data were processed

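Poly(A) RNA of 12 libraries (6 groups of 2) was sequenced from directional libraries. The deposited values are raw counts per RefSeq gene. To make them the authors used STAR 2.3.0e with the mm9 genome, then SAMtools 0.1.19 to drop poorly mapped, mitochondrial and contig alignments, and featureCounts 1.6.2. Groups follow the GEO labels. Library totals ran from 11171111 to 27155553, and low counts limit Igfbp5, Igfbp6 and Igfbp7 most. The members and gene lists were chosen with earlier results of these data known.

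Counts were fitted with edgeR 4.0.16 in R 4.3.3: filterByExpr with a minimum count of 10, TMM normalization, and a quasi-likelihood fit of all 12 libraries with a mean per group (6 residual degrees of freedom), adjusted by Benjamini-Hochberg over 15532 genes. Correlations used log2 of normalized CPM with 0.5 added. Exon lengths came from GENCODE M1, found for 90.3% of genes tested. Named by rule were the members, Ctsl, the pathway's ligands, receptors and carriers, the largest change in each role, markers beside a member, and the 3 most similar genes per member. Stc2 was named after its values were seen. A gene similar to Igfbp7 is not reported here. Alternatives were RLE scaling, DESeq2 1.42.0, limma-voom (limma 3.58.1) with quality weights, no filter, fewer libraries, a replicate block, a stricter fold cutoff, each library left out, and, chosen after seeing the data, offsets for exonic length.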

Additional observations from a re-analysis of the deposited data

How the results depend on the processing

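The 7 members gave 663 values under the alternatives other than leaving out 1 library. Of these, 639 kept their direction and side of the thresholds, 14 no longer passed, 6 newly passed and 4 changed sign. RLE scaling, DESeq2, no filter and the replicate block left all 77 member values with the same direction and side of the thresholds. The counts over all genes between the lines moved far more, and the cause was not tested. Genes passing between the lines on Day 0, 2 and 4 numbered 48, 120 and 124 with DESeq2, 254, 0 and 723 with limma-voom quality weights, 29, 60 and 119 with no filter, 269, 0 and 711 with only the libraries compared, and 32, 37 and 22 with exonic length offsets, which were chosen after seeing the data. Without both shCTSL Day 2 libraries they numbered 212 on Day 0 and 909 on Day 4. For the difference between lines in the change from Day 0 to Day 4 they were 22 with DESeq2, 130 with quality weights, 7 with no filter, 149 with only the libraries compared, 258 without both shCTSL Day 2 libraries and 5 with length offsets, and DESeq2 gave 6 for the change from Day 2 to Day 4. Quality weights, only the libraries compared and leaving out both shCTSL Day 2 libraries each gave 1 member called on Day 4 between lines (Igfbp5) and 1 in the change from Day 0 to Day 4 (Igfbp2). With a log2 fold change of at least 1.5, fewer genes can pass: 3844, 1462 and 4778 for the 3 day comparisons of shSC (Day 2 over 0, 4 over 2, 4 over 0), 3981, 1312 and 4697 for shCTSL, and 2 between the lines on Day 2. Day 4 over Day 2 in shCTSL gave 1255 with quality weights and 1201 with only the libraries compared. With length offsets the sign turned for Igfbp4 on Day 2 (−0.028) and Day 4 (−0.039), for Igfbp7 on Day 4 (−0.12) and for the Igfbp7 difference in the change from Day 0 to Day 4 (−0.062), and with no filter for Igf2 on Day 0 (−0.018).

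Correlations between the deviations of same-numbered replicates ran from −0.465 to 0.257 over 15 pairs of groups. Both extremes involved shCTSL Day 2, whose replicates differed by gene length. Correlations that involve that group therefore cannot decide whether the numbers pair the samples. Among the pairs of the other groups the correlations ran from −0.161 to 0.148, with both signs, and show no common pairing. The study's methods name no pairing. With the replicate block, genes passing between lines numbered 0 on Day 2, 1 on Day 4 and 0 for the change from Day 0 to Day 4, and Igf2 on Day 2 no longer passed (−1.02, adjusted p = 0.057).

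Leaving out 1 library at a time gave 2390 to 4433 genes for shSC and 2346 to 6213 for shCTSL from Day 2 to Day 4, 0 to 214, 0 to 5012 and 0 to 926 between the lines on Day 0, 2 and 4, and 0 to 268 and 0 to 2323 for the differences between lines in the changes from Day 0 and Day 2 to Day 4. Members called ran from 0 to 3 between lines on Day 2, and from 0 to 1 on Day 4 and for both differences in change. The highest counts between the lines on Day 2 came without shCTSL Day 2 replicate 2, which leaves 1 shCTSL library on that day. The log2 differences between lines that changed sign had these lowest and highest values, none of them past the threshold with all 12 libraries. Between the lines on Day 0 they were Igfbp4 −0.31 to 0.039, Igfbp5 −0.46 to 2.87, Igfbp6 −1.01 to 1.02, Igfbp7 −0.33 to 0.16 and Igf2 −0.058 to 0.068. Between the lines on Day 2 they were Igfbp2 −0.015 to 0.88, Igfbp3 −0.0087 to 0.10, Igfbp4 −0.13 to 0.28, Igfbp5 −1.40 to 0.049 and Igfbp7 −0.44 to 0.93. Between the lines on Day 4 they were Igfbp4 −0.12 to 0.22, Igfbp6 −0.30 to 0.32 and Igfbp7 −0.21 to 0.41. For the difference between lines in the change from Day 0 to Day 4 they were Igfbp4 −0.0032 to 0.36, Igfbp6 −1.07 to 0.97, Igfbp7 −0.15 to 0.47 and Igf1r −0.20 to 0.20. For that in the change from Day 2 to Day 4 they were Igfbp2 −0.57 to 0.33, Igfbp4 −0.24 to 0.18, Igfbp5 −1.27 to 0.17, Igfbp7 −0.88 to 0.50 and Igf1r −0.29 to 0.10.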
